A study of Apis mellifera with 18 samples.

Results

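The abundant noncoding transcripts of the honey bee (Apis mellifera) brain, Malpighian tubules and ventriculus are described here from the RefSeq features whose accession starts with XR_, the prefix for predicted noncoding transcripts. A feature was taken when its median over 5 pools reached 20 CPM (a feature's count scaled to the library's total) in at least 1 of the 3 tissues. This gave 231 transcripts of 229 genes, out of 4187 XR_ features and 28396 features counted in all. The transcripts were chosen by their tissue medians in these same pools, so their levels by tissue are given as a description without a test. Most of them fitted the name long noncoding RNA. The annotation placed 195 in lncRNA genes, but 30 were noncoding splice variants of protein-coding genes, 4 were of the class misc_RNA, 1 was an rRNA and 1 was an snRNA.

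The samples came from 6 patrilines (the daughters of 1 drone father) of a single colony, Colony 36. All workers were collected at 7 days of age and on the following day were offered 20 µL of sucrose solution with 4.27 ppb clothianidin, a neonicotinoid insecticide, and they were frozen 24 h after the feeder was removed. Brains, Malpighian tubules and ventriculi of the same 5 workers were pooled by organ, so that each patriline gave 1 library per tissue and 18 libraries in total. The groups compared are the brain pools, the Malpighian tubule pools and the ventriculus pools of patrilines P1, P7, P8, P11 and P24 (5 libraries each), and every pool came from exposed bees, so nothing here measures the effect of clothianidin. The 3 pools of P21 were not used in choosing the transcripts. Which patrilines were tolerant is not stated in the sample labels, and no comparison by tolerance was made.

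Long noncoding RNAs are transcripts without a long open reading frame. They are often present in few tissues, many stay in the nucleus, and some act on the transcription of nearby genes or serve as scaffolds for proteins. The honey bee brain is known for several of them, such as Ks-1 in the Kenyon cells of the mushroom bodies. The brain is the insect's integrating centre, the ventriculus is the midgut and digests the diet, and the Malpighian tubules excrete waste and take part in the detoxification of xenobiotics.

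The libraries held 39722329 to 87946924 counts assigned to features. Counts were made per transcript and 30.9 to 50.3% of fragments were left out as ambiguous, which means that a transcript was counted by the fragments it shared with no other. CPM was not divided by transcript length, and an order of transcripts by CPM is an order of fragments, not of molecules. TMM factors, which scale libraries on the bulk of the features, had a median of 1.78 in brain, 1.14 in Malpighian tubules and 0.51 in ventriculus, and against plain CPM they moved a log2 difference by -1.80 for brain minus ventriculus, by -0.65 for brain minus Malpighian tubules and by -1.15 for Malpighian tubules minus ventriculus. Levels below are CPM unless TMM is named, and the highest tissue and restriction of every transcript were checked under both. Of a 19-gene brain list 13 genes were found, and they summed to 1648 to 9969 CPM in the 5 brain pools, 11.8 to 36.1 CPM in the tubule pools and 7.93 to 11.9 CPM in the ventriculus pools, with 1 or 2 of the 13 at 0 in each brain pool. The P7 ventriculus pool held 7788 CPM on 2 venom gland genes, against 0.436 to 269 CPM in the other ventriculus pools. The P11 and P7 tubule pools held 662 and 503 CPM on these genes, against 6.49 to 36.6 CPM in the other tubule pools. The brain pools of P11 and P21 stood apart, with 28.1 and 19.2% of counts on the 9 major royal jelly protein genes, products of the hypopharyngeal glands of the head, against 0.856 to 3.97% in the other brain pools.

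On library totals most of the transcripts, and most of the restricted ones, were highest in brain. Of the 231 transcripts, 156 (67.5%) had their highest median in brain, 53 (22.9%) in Malpighian tubules and 22 (9.52%) in ventriculus. A total of 159 reached 20 CPM in only 1 tissue, 42 in 2 tissues and 30 in all 3. When restricted was defined as a median at least 10 times that of each other tissue, 77 transcripts (33.3%) were restricted, 64 of them to brain, 9 to Malpighian tubules and 4 to ventriculus. The index tau, which is 0 for equal levels in the 3 tissues and 1 for presence in a single tissue, had a median of 0.864 over the 231 transcripts, against 0.588 over the 4341 coding transcripts that passed the same 20 CPM rule. Of those coding transcripts 12.9% were restricted. Among transcripts highest in brain 41.0% were restricted, against 16.1% of the coding ones highest there. For Malpighian tubules the shares were 17.0% and 5.39%, but for ventriculus they were alike, at 18.2% and 18.8%. The coding transcripts, too, most often peaked in brain (62.9%), then in Malpighian tubules (31.2%) and in ventriculus (5.87%).

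**Figure D1:**
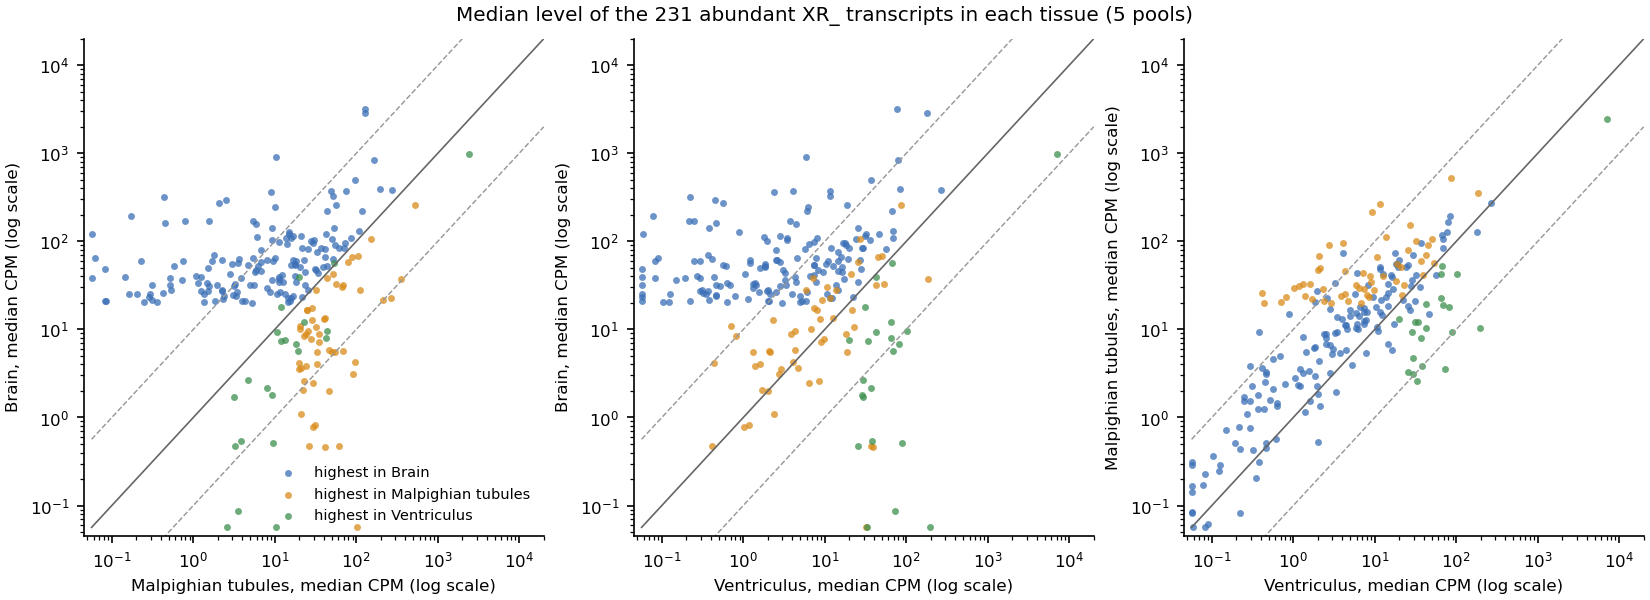
Median CPM over 5 pools of each of the 231 XR_ transcripts in pairs of tissues, both axes on a log scale, coloured by the tissue of the highest median; the solid line marks equal levels and the dashed lines a 10-fold difference. Of the 156 brain-high transcripts 64 lie beyond the dashed lines against both other tissues, and for 19 of the 22 ventriculus-high ones the Malpighian tubules were the second tissue.

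The scaling changed where some transcripts peaked. Under TMM scaling 190 of the 231 kept their highest tissue. Of the 41 that did not, 20 moved from brain to ventriculus, 11 from brain to Malpighian tubules and 10 from Malpighian tubules to ventriculus, giving 125, 54 and 52 transcripts highest in brain, Malpighian tubules and ventriculus. Of the 77 restricted transcripts, 57 were restricted under both scalings (47 in brain, 6 in Malpighian tubules and 4 in ventriculus). None changed its highest tissue, but this was fixed by the definition. The TMM factors of the 15 pools lay between 0.470 and 1.82, a narrower range than the 10-fold gap. Counting the 231 on the TMM scale alone, 65 were restricted, 47 to brain, 7 to Malpighian tubules and 11 to ventriculus. Over the tissues together, restriction also remained more frequent than among coding transcripts. The XR_ features at 20 TMM-scaled CPM had a median tau of 0.791 and 26.9% restricted, against 0.432 and 11.3% for the coding ones. The shares by highest tissue are given on library totals only.

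**Figure D2:**
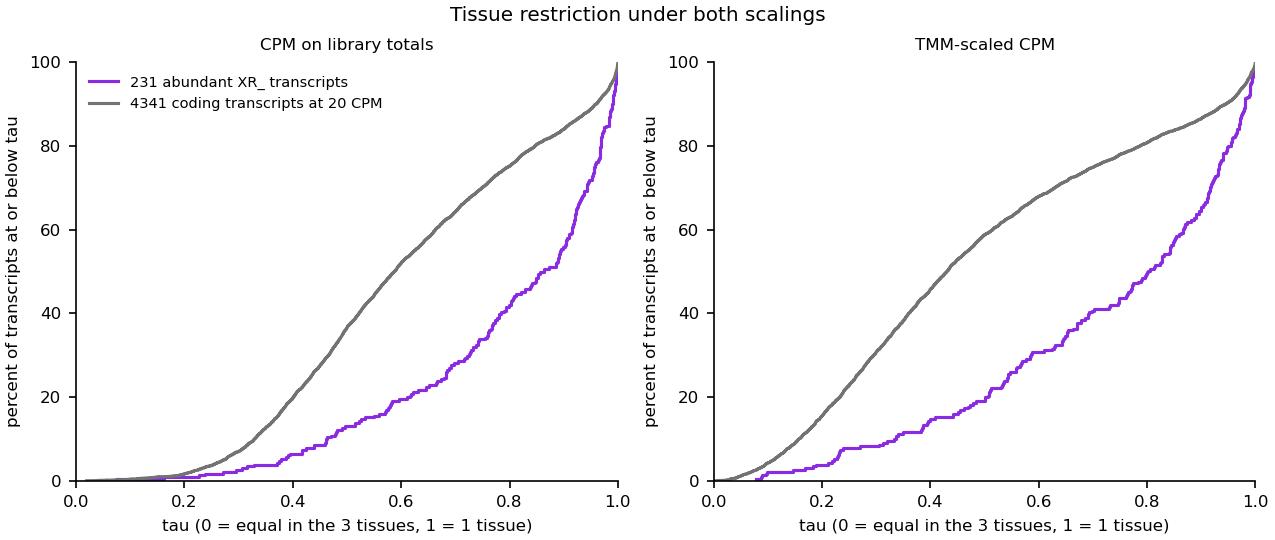
Cumulative percent of transcripts at or below each value of tau for the 231 XR_ transcripts and the 4341 coding transcripts, with CPM on library totals (left) and TMM-scaled CPM (right). The XR_ curve lies to the right of the coding curve in both panels, with medians of 0.864 and 0.588 on library totals.

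The 2 transcripts with the highest brain medians overlap the same coding gene, LOC408699. XR_001706525.2 (LOC107966103) had 3945, 2831, 3175, 1704 and 3636 CPM in the brain pools of P1, P7, P8, P11 and P24, against 131, 100.5, 116, 127 and 162 CPM in the Malpighian tubules and 65.7, 56.2, 76.9, 80.1 and 78.5 CPM in the ventriculus. XR_003304193.1 (LOC113218601) had 4262, 2742, 2883, 1327 and 3999 CPM in brain, against 127, 91.3, 132, 84.1 and 139 CPM in Malpighian tubules and 154, 152, 180.4, 188 and 190.2 CPM in ventriculus. Brain pools of both lay well above every other pool, with P11 the lowest brain pool. On the TMM scale the log2 difference of brain minus ventriculus was 3.72 ± 0.15 (SE) for the first and 2.42 ± 0.21 for the second, and the second was no longer restricted there because its ventriculus level was within 10-fold. Next to LOC107966103, LOC113218600 gave another brain-restricted transcript, XR_003304189.1, with medians of 247, 10.2 and 6.28 CPM in brain, Malpighian tubules and ventriculus.

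Among transcripts highest in brain, the next by median was XR_003304346.1 (LOC113218632), with 1039, 902, 914, 428 and 1432 CPM in brain, against 7.1 to 13.8 CPM in Malpighian tubules and 4.48 to 12 CPM in ventriculus. Its brain median was 89.2 times that of the Malpighian tubules, and it was restricted under both scalings. The next 3 brain-high transcripts were much less confined to it. XR_001704393.2 (LOC107965036) had medians of 835, 167 and 79.1 CPM in brain, Malpighian tubules and ventriculus. XR_003305570.1 (LOC494508), a misc_RNA, had 495, 96.7 and 37.4 CPM, and its brain pools lay at 253 to 546 CPM. The brain pools of XR_003305294.1 (LOC113218980) held 435, 358, 389, 146 and 572 CPM and overlapped the Malpighian tubule pools at 162 to 221 CPM, because P11 was low in brain.

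The cleanest brain restriction belonged to transcripts that were close to the counting floor elsewhere. XR_003305948.1 (LOC100577092) had 122, 118, 138, 48.7 and 141 CPM in brain, against 0 to 0.0755 CPM in Malpighian tubules and 0.0341 to 0.139 CPM in ventriculus, where a count of 3 in a library of mean size is 0.0564 CPM. XR_003305432.1 (LOC113219037) had 204, 183, 192, 87.4 and 199 CPM in brain, against 0 to 0.529 CPM in Malpighian tubules and 0.0114 to 0.248 CPM in ventriculus. XR_003305178.1 (LOC113218944) had 395, 305, 370.4, 113 and 316 CPM in brain, against 0.144, 0.755, 0.436, 13.7 and 0.339 CPM in Malpighian tubules, so that the P11 tubule pool was the exception. On library totals, 26 of the 156 brain-high transcripts had medians under 1 CPM in both other tissues. So did 1 of the 53 tubule-high and 0 of the 22 ventriculus-high transcripts. This count was not taken under TMM scaling or for coding transcripts. The second tissue of brain-high transcripts was the Malpighian tubules for 127 and the ventriculus for 29 on library totals, but with TMM scaling the tubule median was the higher of those tissues for 82 and the ventriculus median for 74.

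**Figure D3:**
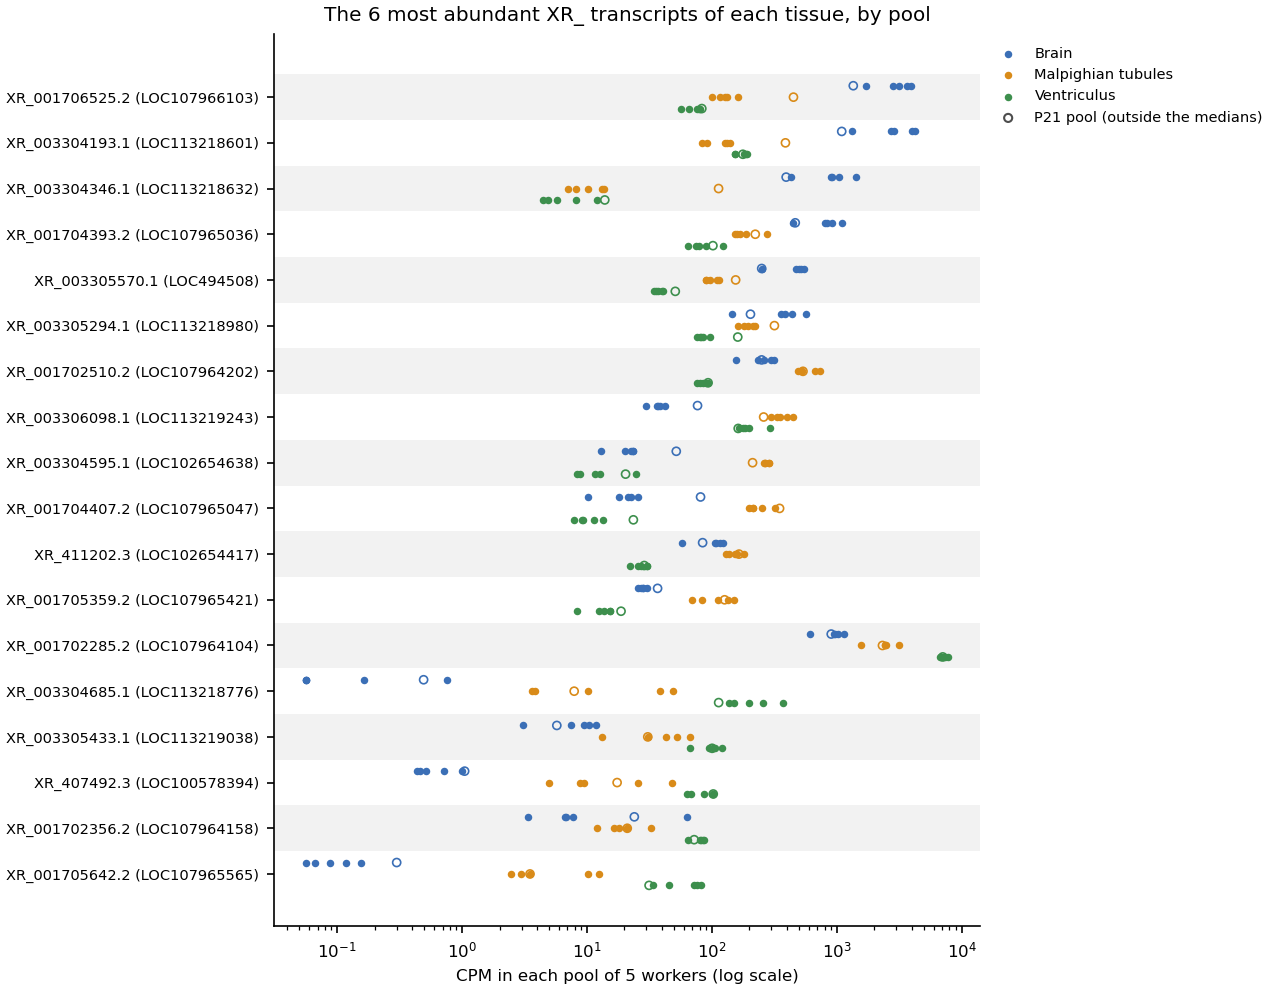
CPM in every pool (log scale) of the 6 XR_ transcripts with the most fragments among those highest in brain, in Malpighian tubules and in ventriculus, from top to bottom; filled points are the 5 pools of each tissue, open points the P21 pools and values under 0.0564 CPM are drawn there. Of the 6 brain transcripts 3 are over 10-fold above both other tissues, and XR_003305294.1 overlaps the tubule pools.

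The Malpighian tubules had the highest median of 53 transcripts, of which 9 (17.0%) were restricted, against 5.39% of the coding transcripts highest there. Their most abundant tubule-high transcript, XR_001702510.2 (LOC107964202), had 157 to 314 CPM in brain, 731, 521, 531, 493 and 667 CPM in the Malpighian tubules of P1, P7, P8, P11 and P24, and 76.5 to 93.7 CPM in ventriculus. XR_003306098.1 (LOC113219243) had 29.6 to 42.4 CPM in brain, 448, 349.7, 336, 401 and 297 CPM in Malpighian tubules and 178, 185, 292, 167 and 198 CPM in ventriculus, and its order depended on the scaling, because TMM-scaled medians were 316 in Malpighian tubules and 359.9 in ventriculus. It was lowest in brain under either scaling. The smallest tubule spread (CV 4.71%) was that of XR_003304595.1 (LOC102654638), with 12.9 to 23.6 CPM in brain, 266, 289, 262, 266 and 287 CPM in Malpighian tubules and 8.37 to 24.8 CPM in ventriculus.

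XR_001704407.2 (LOC107965047) fell just short of the 10-fold line, with medians of 21.4 CPM in brain, 214 CPM in Malpighian tubules and 9.23 CPM in ventriculus. XR_411202.3 (LOC102654417) and XR_001705359.2 (LOC107965421) had brain medians of 107 and 28 CPM, against tubule medians of 153 and 111 CPM. The 9 restricted transcripts ranged in tubule median between 22.0 and 266 CPM, and all 9 were from lncRNA genes. The 3 with the highest tau not yet named were of low level, at 31.2 CPM for XR_001702410.2 (LOC107964181), 29.9 CPM for XR_409099.3 (LOC102655539) and 26.1 CPM for XR_003305373.1 (LOC102656350). They differed in how their pools spread. XR_001702410.2 lay at 28.3 to 42.3 CPM over the 5 tubule pools, XR_003305373.1 at 4.17 to 58.2 CPM and XR_409099.3 at 2.83 to 43.1 CPM.

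In the ventriculus 1 transcript stood above all others. XR_001702285.2 (LOC107964104) had 960.5, 1139, 973, 615 and 1032 CPM in brain, 2427, 2501, 3166, 2445 and 1571 CPM in Malpighian tubules and 7834, 6839.8, 6768, 7428 and 7053 CPM in ventriculus. It was the most abundant XR_ transcript of the ventriculus and of the Malpighian tubules, and it was not restricted, since its ventriculus median was 2.88 times that of the Malpighian tubules. The log2 difference of brain minus ventriculus was -4.61 ± 0.22 (SE) on the TMM scale, and its spread over the ventriculus pools was small, at a coefficient of variation (CV) of 6.19%.

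The other abundant ventriculus-high transcripts had far fewer fragments. XR_003304685.1 (LOC113218776) had at most 0.762 CPM in brain, 3.82, 3.65, 49.1, 38.4 and 10.2 CPM in Malpighian tubules and 137, 152, 198, 256 and 374 CPM in ventriculus. XR_001705642.2 (LOC107965565) had at most 0.155 CPM in brain, 12.5, 2.47, 10.1, 2.98 and 3.54 CPM in Malpighian tubules and 82, 76, 34, 45.4 and 72 CPM in ventriculus. XR_003305987.1 (LOC113219212) and XR_003305313.1 (LOC102656780) were the remaining restricted ones, with medians of 33.1 and 38.2 CPM in ventriculus. All 4 were nearly absent from brain and had their remaining counts in the Malpighian tubules. XR_003305433.1 (LOC113219038), XR_407492.3 (LOC100578394), XR_001702356.2 (LOC107964158) and XR_003304945.1 (LOC113218875) reached 102, 87.4, 82.6 and 25.7 CPM in ventriculus, and the last 3 were restricted under TMM scaling only.

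The levels of ventriculus-restricted transcripts in the tubule pools varied with the pool. As a percent of the ventriculus median, the median over the 4 transcripts was 28.6% in the P8 tubule pool and 15.1% in that of P1, against 6.36% in P11, 5.52% in P24, 4.88% in P21 and 2.85% in P7. Aminopeptidase N (XM_006565481.3), a digestive peptidase of the midgut, was at 7202 and 5504 CPM in the P8 and P1 tubule pools, against 866, 783 and 1598 CPM in those of P11, P24 and P7. The P21 tubule pool departed from this, with 4539 CPM of aminopeptidase N beside the low 4.88% of the transcripts. The part of carried-over midgut in these tubule counts was not tested, and in pooled organs fewer cells of a type and less RNA per cell cannot be told apart.

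On library totals 13 transcripts (5.63%) had all 3 tissue medians within 2-fold, against 10.5% of the coding transcripts. With TMM scaling 33 did (14.3%), against 43.0% of the coding transcripts, and 4 transcripts did so under both scalings. The transcripts named next were the 4 with the lowest tau on library totals. XR_001706384.2 (LOC727631) was the most even, with 17.2 to 26.4 CPM in brain, 15.7 to 29.9 CPM in Malpighian tubules and 14.9 to 22.7 CPM in ventriculus, so that the 3 groups overlapped. XR_003306328.1 (LOC107965678), XR_001704394.2 (LOC107965039) and XR_003306545.1 (LOC102654916) had brain medians of 57.4, 16.8 and 33 CPM, against ventriculus medians of 65.9, 21.5 and 53.1 CPM. Under TMM scaling all 4 of these were highest in ventriculus, and XR_001706384.2 had scaled medians of 13.2, 19 and 38 in brain, Malpighian tubules and ventriculus.

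The 30 noncoding variants of coding genes form a separate class, because their counts depend on which exons are theirs alone. Of the 30, 24 were highest in brain, 3 in Malpighian tubules and 3 in ventriculus, and 9 were restricted, all to brain. For 16 of them the coding transcripts of the same gene were under 1 CPM in every tissue, and for 14 these were at a median of 0. SIFR, the receptor of the neuropeptide SIFamide, is an example. Its noncoding variant XR_003305813.1 had medians of 275, 2.08 and 0.563 CPM in brain, Malpighian tubules and ventriculus, while its coding transcript was at a median of 0 in all of them. Kr-h1, the zinc-finger transcription factor that responds to juvenile hormone, gave XR_003304765.1 and XR_003304764.1 at 58.7 and 16.6 CPM in brain and 78.8 and 24.5 CPM in Malpighian tubules, again with coding transcripts at 0. How far such counts stand for the whole gene was not tested. Among the 14 variants whose coding transcripts were at 1 CPM or more in a tissue, 12 had the same highest tissue as those coding transcripts. All 12 were highest in brain, as were 65.9% of all expressed coding genes on library totals. LOC552171 entered more than once, and the match was not taken under TMM scaling. LOC409957, picked after its values were seen, had 363, 8.94 and 2.4 CPM for its variant and 112, 1.49 and 0.572 CPM for its coding transcript in brain, Malpighian tubules and ventriculus.

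The rRNA and the snRNA among the abundant transcripts behaved unlike each other. XR_003306454.1 (LOC113219383), an rRNA, was present at 109, 85.1 and 68.7 CPM, with its highest tissue changing to ventriculus under TMM scaling. XR_003305264.1 (LOC113218968), an snRNA, had 21, 21.8, 21.7, 8.32 and 15.3 CPM in brain, against 4.00 to 6.84 CPM in Malpighian tubules and 1.51 to 3.08 CPM in ventriculus. The 3 further misc_RNA transcripts were highest in brain on library totals, the last of them in ventriculus under TMM scaling, with brain medians of 84.8 CPM for XR_003306031.1 (LOC411791), 53 CPM for XR_003305513.1 (LOC408297) and 22.9 CPM for XR_003304795.1 (LOC724982).

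The genes beside the lncRNAs were compared next, since position was not part of the choice. For 194 transcripts of lncRNA genes a nearest coding gene at 1 CPM or more was found, and for 86 of them the annotated spans overlapped. The nearest coding gene had the same highest tissue for 96 of 125 brain-high lncRNAs (76.8%), 24 of 50 tubule-high lncRNAs (48.0%) and 2 of 19 ventriculus-high lncRNAs (10.5%). Of all expressed coding genes, 65.9% were highest in brain, 27.7% in Malpighian tubules and 6.38% in ventriculus, and coding genes next to each other shared the highest tissue in 56.5% of 6504 pairs. Among brain-high lncRNAs the agreement was 47 of 54 where the spans overlapped and 49 of 71 where they did not. For tubule-high lncRNAs it was 10 of 24 with overlap and 14 of 26 without, and for ventriculus-high ones 0 of 8 with overlap and 2 of 11 without. Among restricted lncRNAs the agreement was 44 of 54 for brain and 6 of 9 for Malpighian tubules. None of the 4 ventriculus-restricted lncRNAs had a ventriculus-high coding neighbour. All of this uses the highest tissue on library totals, and the agreement was not taken under TMM scaling.

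Of the 67 restricted lncRNAs with such a neighbour, 5 lay at a gene with a symbol, and all 5 overlapped it. They are named for their neighbours and not for their own values. The lncRNA LOC113219284 overlapped Dop1, a dopamine receptor gene, with brain medians of 27 CPM for the lncRNA and 175 CPM for Dop1, while in Malpighian tubules and ventriculus the lncRNA was at 1.53 and 0.296 CPM. LOC113219118 overlapped Pkc, a protein kinase C gene, with 172 CPM for the lncRNA and 81.8 CPM for Pkc in brain, and both were under 2 CPM in the other tissues. LOC102655455 lay at Abscam, a neuronal cell adhesion gene, and LOC107965520 at Stg-1, with 59.2 and 26.1 CPM for the lncRNAs in brain. The tubule example was LOC102656453 at cad, the caudal homeobox gene, where the lncRNA had 2.03, 22 and 1.7 CPM and cad had 0.866, 120.4 and 14.5 CPM in brain, Malpighian tubules and ventriculus. Each of the 5 pairs shared its highest tissue. The strand setting of the counting is not given in the sources used here, so that reads of overlapping partners cannot be told apart here. Of the abundant transcripts, 5 pairs were neighbours of each other, and each pair shared its highest tissue.

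The pools of P21 were not used in the choice of transcripts. In P21 the highest tissue on library totals was the same for 201 of the 231 transcripts, and for all 77 restricted ones. The 201 were 129 of 156 brain-high, 51 of 53 tubule-high and 21 of 22 ventriculus-high transcripts. Restricted transcripts were defined by a 10-fold gap, which makes a change of highest tissue unlikely. The same share over all features was not computed, so nothing particular to these transcripts is read from it. The P21 levels were less clean than those of the other patrilines. The 9 tubule-restricted transcripts were at a median of 24.1% of their tubule level in the P21 brain pool, against 4.30% in the other brain pools, and for 7 of the 9 P21 was above all 5. In the other direction the P21 tubule pool held 113 CPM of the brain transcript XR_003304346.1, against 7.1 to 13.8 CPM in the other tubule pools. The 13 genes of the brain list, among them opsins and transmitter receptors, summed to 720.0 CPM in the P21 tubule pool, against 11.8 to 36.1 CPM in the other tubule pools. CYP9Q1 and CYP9Q2, listed as tubule markers, summed to 5289 CPM in the P21 brain pool, against 1152 to 2344 CPM in the other brain pools. They were not confined to tubules, with 6750 to 12251 CPM in the other ventriculus pools and 23836 to 36171 CPM in the other tubule pools. Aminopeptidase N, the midgut peptidase, was at 56.6 CPM in the P21 brain pool, against 1.05 to 1.95 CPM in the other brain pools. The part of mixed tissue in the P21 levels was not tested.

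The spread between pools was wider for the noncoding transcripts than for coding ones in each tissue. Where the median was at least 20 CPM, the median CV over 5 pools was 28.9% for 174 brain transcripts, 19.4% for 101 tubule transcripts and 14.7% for 58 ventriculus transcripts. Coding transcripts had 19.5%, 10.1% and 11% in brain, Malpighian tubules and ventriculus. With TMM scaling the values were 18.8%, 18.3% and 16.2%, against 10.3%, 9.44% and 7.53% for coding transcripts, and the order was the same when only transcripts with medians of 20 to 100 CPM were taken (28.4%, 20.9% and 14.3%, against 19.9%, 9.92% and 10.9% for coding transcripts). The ratio of the highest to the lowest pool had a median of 2.40 in brain, 1.63 in Malpighian tubules and 1.44 in ventriculus, and it passed 5 for 3, 6 and 1 transcripts. These differences in spread are descriptions and were not tested.

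**Figure D4:**
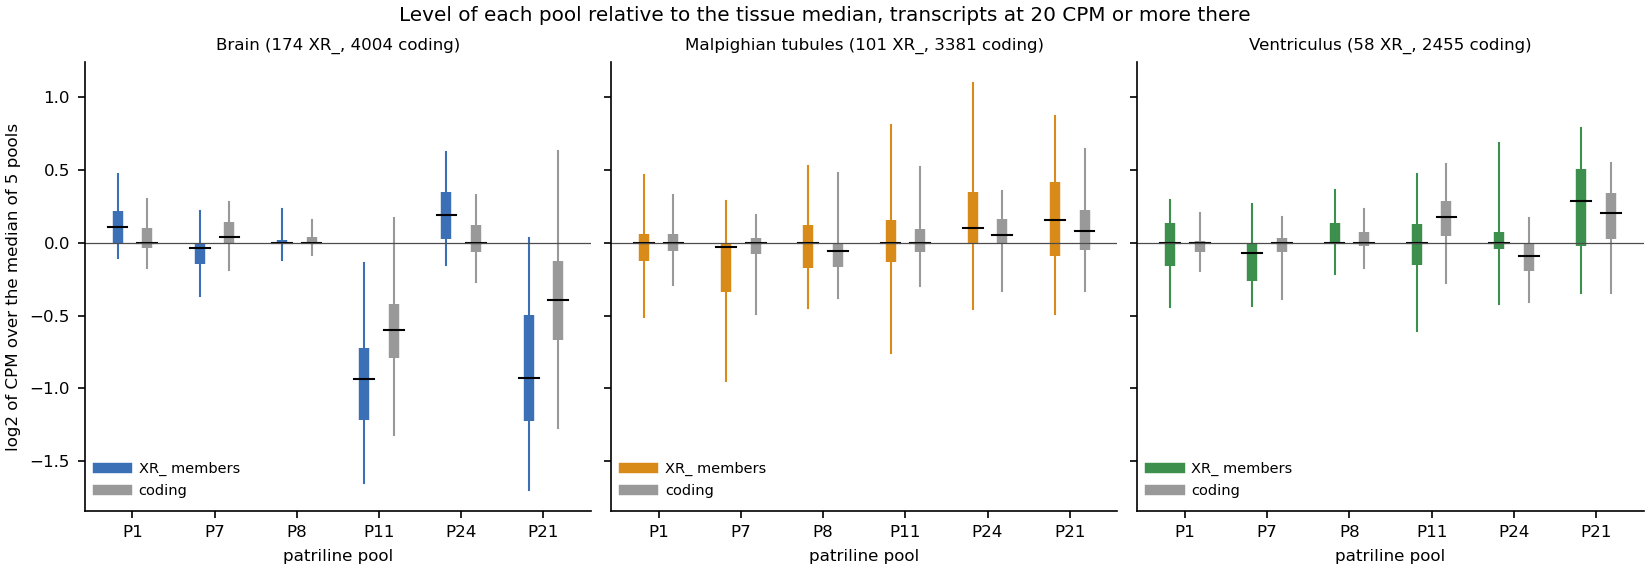
Log2 of each pool's CPM over the tissue's median of 5 pools, for XR_ transcripts (coloured) and coding transcripts (grey) at a median of 20 CPM or more in that tissue; thick bars span the quartiles, thin lines the 5th to 95th percentile and black ticks mark the medians. In brain the P11 pool is the lowest for 165 of 174 XR_ transcripts.

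In the brain most of the spread belonged to 1 pool. P11 was the lowest of the 5 brain pools for 165 of the 174 transcripts (94.8%), against 90.9% of the coding transcripts, and without P11 the median CV of the 174 was 13.5%. Leaving the royal jelly protein genes out of the library totals lowered it to 20.5%, and P11 was still the lowest pool for 142. The 64 brain-restricted transcripts were at a median of 40.5% in P11 and 39.8% in P21 of their median over P1, P7, P8 and P24, and with TMM scaling at 60.2% and 54.5%. Other markers moved with these pools in both directions. The 3 opsins found, genes of the eye, summed to 9499 and 4364 CPM in the P11 and P21 brain pools, against 529 to 1362 CPM in the others, whereas the 10 receptor and neuronal genes of the list summed to 470.1 and 435 CPM, against 1067 to 1366 CPM. The 4 storage protein genes found of a 5-gene fat body list were high as well, at 693 and 638 CPM in the P11 and P21 brain pools, against 32.7 to 75 CPM in the others. The part of gland, eye or fat body tissue in the low noncoding levels of these pools was not tested.

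The 4 transcripts with the largest CV apart from XR_409099.3, described further on, were highest in P11 among the tubule pools, though P11 was the highest brain pool for 1 of the 174 brain transcripts. XR_001705692.2 (LOC411569), a noncoding variant of a coding gene, had 23.3, 60.1, 39.1, 158 and 24.5 CPM in brain, 5.55, 19.6, 35.2, 642 and 14.2 CPM in Malpighian tubules and 42.9, 16.2, 58.1, 92.1 and 15.7 CPM in ventriculus (P1, P7, P8, P11 and P24), so that P11 was the highest pool in all 3 tissues. Its brain CV was 92.3%, and its P21 brain pool was also high, at 207 CPM. XR_411275.3 (LOC102656130) had 293, 498, 419, 294 and 377 CPM in brain, its highest tissue, where P11 was low, and 14.6, 15.2, 84.6, 354 and 48.6 CPM in Malpighian tubules (CV 138%). XR_001703751.2 (LOC100576841) had 8.51, 8.74, 9.7, 41.7 and 10.8 CPM in brain and 11.1, 3.98, 25.4, 101 and 77.8 CPM in Malpighian tubules (CV 98.3%). XR_001704282.2 (LOC107964990) had 23, 7.58, 31.6, 72.8 and 11.8 CPM in Malpighian tubules (CV 88.8%) and 58.7 to 69.6 CPM in ventriculus, its highest tissue. The same storage protein genes summed to 176, 156, 1372, 2438 and 669 CPM in the tubule pools of P1, P7, P8, P11 and P24, with P11 again the highest. The royal jelly protein genes, 5 muscle genes and the 2 venom gland genes were also highest in P11 among these pools, at 2037, 69.2 and 662 CPM. Aminopeptidase N was not, at 866 CPM in P11. XR_001702356.2, which is highest in ventriculus, was at 63.1 CPM in the P11 brain pool, against 3.35 to 7.7 CPM in the other 4. The part of fat body, gland or muscle in these levels was not tested.

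Differences between patrilines were not used in choosing the transcripts and were tested over all features. With edgeR's quasi-likelihood F test of patriline beside tissue, 108 of 10263 features passed a Benjamini-Hochberg adjusted p of 0.05 (1.05%), and 5 of the 231 abundant noncoding transcripts did (2.16%). At an unadjusted p under 0.05 the counts were 15.7% of all features and 52 of the 231 (22.5%). Every patriline was a single pool of 5 workers in each organ, so that a difference is one between pools of 5 workers. The count rested strongly on P11. Without P11 a single feature of all passed and none of the 231, and leaving out P1, P7, P8 or P24 left 1, 1, 1 or 2 of the 231. DESeq2's likelihood ratio test called more, 1218 features and 42 of the 231.

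**Figure D5:**
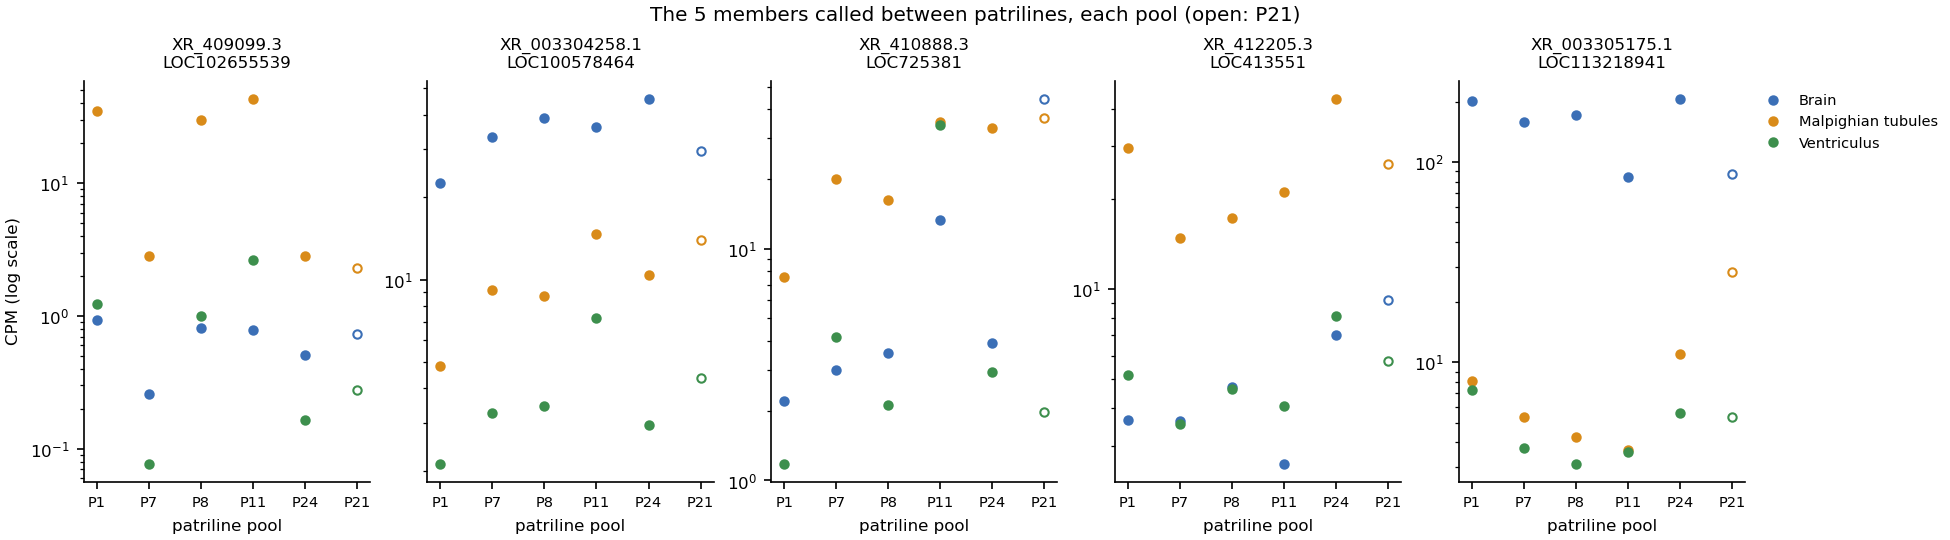
CPM (log scale) of the 5 transcripts that passed the patriline test, in each pool of the 3 tissues; open points are the P21 pools, which were not in the test. XR_409099.3 falls into high tubule pools (P1, P8 and P11, 29.9 to 43.1 CPM) and low ones (P7, P24 and P21, 2.29 to 2.84 CPM).

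The most uneven of these was XR_409099.3 (LOC102655539), one of the 9 tubule-restricted lncRNAs. It had 34.9, 2.84, 29.9, 43.1 and 2.83 CPM in the tubule pools of P1, P7, P8, P11 and P24 (edgeR adjusted p = 0.0337), with no pool in between the high and the low ones. In brain its pools were all under 1 CPM, and in ventriculus the same patrilines were high and low, at 1.24, 0.0773, 1.01, 2.64 and 0.163 CPM. In these ventriculus pools the 9 tubule-restricted transcripts were at medians of 4.05, 3.30, 3.79, 6.51 and 1.56% of their tubule median. The part of carried-over tubule in the ventriculus values was not tested, and the patriline test used both organs. The P21 tubule pool, which neither the choice nor the test had used, was at 2.29 CPM and so among the low ones. This was the transcript that still passed when the brain pools were left out, and it did not pass without P1, P7, P8 or P11 or with P21 included (adjusted p of 0.0722 to 0.183). Its span overlaps the coding gene LOC410649, which was at medians of 4.11, 2.62 and 0.207 CPM in brain, Malpighian tubules and ventriculus.

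The other 4 moved by smaller factors or with P11. XR_003304258.1 (LOC100578464), a variant of a coding gene, had 22.5, 33.2, 38.9, 36 and 45.6 CPM in brain and 4.83, 9.14, 8.72, 14.6 and 10.4 CPM in Malpighian tubules, with P1 the lowest pool in all 3 tissues (edgeR adjusted p = 0.00914). XR_410888.3 (LOC725381) had 7.57, 20, 16.2, 35.1 and 33 CPM in Malpighian tubules and 1.18, 4.16, 2.12, 34.1 and 2.94 CPM in ventriculus, where P11 stood far above the rest (edgeR adjusted p = 0.0257). XR_412205.3 (LOC413551) had 29.6, 14.9, 17.3, 21.1 and 43.1 CPM in Malpighian tubules, with P24 the highest pool in all 3 tissues (edgeR adjusted p = 0.0407). XR_003305175.1 (LOC113218941), a brain-restricted lncRNA, had 202, 159, 171, 84.6 and 206 CPM in brain, with P11 the lowest (edgeR adjusted p = 0.0452). None of these 4 passed without P11 or without the brain pools.

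The tissue contrasts over all features give the background for the levels above. For brain minus ventriculus 77.7% of 10263 features passed edgeR's test, 43.5% higher and 34.2% lower in brain, and 202 of the 231 passed, 130 higher and 72 lower. For brain minus Malpighian tubules 74.7% passed, 40.2% higher and 34.6% lower, with 205 of the 231, 131 higher and 74 lower. For Malpighian tubules minus ventriculus 56.4% passed, 29.5% higher and 26.9% lower, with 146 of the 231, 75 higher and 71 lower. These contrasts are those that chose the transcripts, and nothing is read from the counts. The balance of directions depends on the scaling, because with library totals alone 89.1% of the calls over all features were higher in brain than in ventriculus, 71.0% higher in brain than in Malpighian tubules and 91.3% higher in Malpighian tubules than in ventriculus, against 56.0%, 53.7% and 52.3% with TMM factors. The median log2 difference over all features was 1.88, 0.62 and 1.23 with library totals and 0.22, 0.11 and 0.08 with TMM. The 5 pools of the highest tissue lay above all 10 other pools for 171 of the 231 (74.0%) and for 53.7% of all features tested.

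The share of all counts that fell on XR_ features, abundant or not, was 3.13, 2.6, 2.75, 1.51 and 3.25% in the brain pools of P1, P7, P8, P11 and P24, against 1.3, 1.16, 1.37, 1.41 and 1.29% in the Malpighian tubules and 1.33, 1.2, 1.24, 1.33 and 1.28% in the ventriculus. Brain was above both other tissues in 5 of 5 patrilines, by 1.37 percentage points over the ventriculus and by 1.34 over the Malpighian tubules (2.65 ± 0.691% in brain, 1.31 ± 0.0956% in Malpighian tubules and 1.28 ± 0.0552% in ventriculus, SD, n = 5). The exact two-sided sign-flip permutation test over 5 patrilines gave p = 0.063 for each, the smallest it can give, and 0.0938 after adjustment over the 3 tissue pairs, so it cannot pass 0.05. Malpighian tubules and ventriculus differed by 0.0305 points (exact permutation p = 0.4375). All of these are shares of library totals. TMM factors, with medians of 1.78 in brain, 1.14 in Malpighian tubules and 0.51 in ventriculus, were not applied to them. The order of the tissues is therefore given for library totals only. Much of the ventriculus share was XR_001702285.2 alone. The most abundant XR_ features of the tissues, XR_001702285.2 and the brain's XR_001706525.2, were then both left out in every tissue. The shares were 1.05% in Malpighian tubules and 0.551% in ventriculus. Malpighian tubules were higher by 0.501 points, and in 5 of 5 patrilines.

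Known noncoding RNAs of the honey bee are filed under curated accessions and so lie outside the XR_ features, but their levels place the set. Ancr-1, known from brain and secretory organs, had 21304, 21781, 24379.7, 18921 and 29852 CPM in brain, against 4827, 5715, 7769.6, 7909.6 and 9445 CPM in Malpighian tubules and 3157, 2998, 2884, 3553 and 2952 CPM in ventriculus. Ks-1, the nuclear RNA of the mushroom bodies, had 18.9, 12.8, 14.2, 3.16 and 19.8 CPM in brain, against 0.126 to 0.727 CPM in Malpighian tubules and 0.182 to 0.585 CPM in ventriculus, and its P11 brain pool was low, like those of the brain-restricted transcripts. Kakusei, an immediate early noncoding RNA, was at a brain median of 1.75 CPM. By the 20 CPM rule Ancr-1 would have been taken and Ks-1 and Kakusei not.

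At the threshold itself, the lowest transcripts inside were XR_410888.3 at 20.0 CPM in Malpighian tubules and XR_003306054.1 (LOC113219231) at 20.0 CPM in ventriculus, and the nearest outside were XR_003304353.1 (LOC113218641) at 19.9 CPM in brain and XR_409749.3 (LOC102656553) at 19.9 CPM in Malpighian tubules.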

How the data were processed

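Total RNA of 18 tissue pools was sequenced from a stranded library kit. According to the paper's methods and the submitters' processing notes, the authors trimmed reads with Trimmomatic, aligned them with STAR, checked them with MultiQC and counted fragments with HTSeq, and the deposited values are raw counts per RefSeq transcript accession. The strand setting and tool versions were not given in the sources used here. The build named there (Amel_4.5) differs from Amel_HAv3.1, whose RefSeq table held 27887 of the 28396 accessions and was used for gene names, classes and neighbours only. Rows that name no feature (ambiguous, 30.9 to 50.3% of fragments; no feature, 6.26 to 17.6%; multiply aligned, 1.47 to 2.76%) were left out of totals. Library totals were 39722329 to 87946924.

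From the counts, CPM, tissue medians over 5 patrilines, tau and CV were computed (Python 3.11.15, pandas 2.3.3, numpy 2.4.6), and edgeR 4.0.16 in R 4.3.3 was fitted to the 15 libraries without P21, with TMM factors, filterByExpr (10263 features kept) and quasi-likelihood tests, tissue alone for tissue contrasts and tissue with patriline for patriline differences, with Benjamini-Hochberg adjustment over all features tested. Alternatives were DESeq2 1.42.0 size factors and tests, no filter, all 6 patrilines, patriline as a block, other thresholds and leaving out each patriline; library totals alone, TMM-scaled levels of single transcripts and the brain spread without P11 were added after the data were seen. The SE of a log2 difference was its size divided by the square root of the tissue contrast's F statistic. That fit held tissue alone and left out the pairing of organs within a patriline. Tissues of 1 patriline are from the same workers. Deviations from the tissue means correlated over features at 0.0804 to 0.429 between same-numbered pools. The median for pools of different patrilines was below 0 in each pair of tissues. Their highest values were 0.0405 for brain with Malpighian tubules and 0.0611 for brain with ventriculus. For Malpighian tubules with ventriculus the highest was 0.178, above the lowest same-patriline value there, 0.104. No pools of a tissue agreed within sampling noise (chi-square per degree of freedom at least 45.6). In simulated counts with 100 changes each of 2-fold and 4-fold, the brain minus ventriculus test called 50 and 82 (9905 features) and the patriline test 24 and 71 (9868 features). Apart from its change, each simulated feature had the same mean CPM in all pools and the spread of the fit with tissue and patriline. The patriline change was set in P8 alone, equally in every organ. The calls therefore describe the simulation and are not the power of the tests on these pools.

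Named transcripts were, per tissue, the 6 with the highest median among those highest there and the next 3 by tau; over all, the 4 with the lowest tau, the 5 with the largest CV, the 5 with the smallest patriline p, the 2 on either side of the threshold, the small RNAs and the known honey bee noncoding RNAs. The transcripts, lists and tests were chosen with earlier results of these data known.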

Additional observations from a re-analysis of the deposited data

Results flagged for a closer look

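Each named transcript in its highest tissue, and the XR_ share of counts in each tissue, was searched over its 5 pools for a pool far from the rest by Dixon's test at the 95% level. Of 44 groups 4 were picked out. Chance alone would pick about 1 in 20 of independent groups. These groups are not independent, because they share the same pools, and some transcripts were named for their spread. The count is therefore not compared with that rate. In 3 of the 4 groups the brain pool of P11 was low. It held 253 CPM of XR_003305570.1 (LOC494508), against 475 to 546 CPM in the other 4 brain pools. It held 48.7 CPM of XR_003305948.1 (LOC100577092), against 118 to 141 CPM in the others, and 87.4 CPM of XR_003305432.1 (LOC113219037), against 183 to 204 CPM in the others. In the last group the P8 brain pool was high for the rRNA XR_003306454.1 (LOC113219383), at 161 CPM, against 94.6 to 111 CPM in the other 4.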

How the results depend on the processing

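The counts of features called in the 3 tissue contrasts, over all features and over the 231, stayed within 1.5 times under every alternative run. With the replicate block for patriline they were 8146 for brain minus ventriculus, 7854 for brain minus Malpighian tubules and 5993 for Malpighian tubules minus ventriculus, against 7973, 7669 and 5785 without it, and the block moved no count by over 1.5 times. The patriline count was the least stable. From 108 features and 5 of the 231 it changed to 1218 and 42 with DESeq2's likelihood ratio test, to 46 and 1 with P21 included, to 9 and 1 without the brain, to 85 and 2 with library totals alone, and to between 1 and 59, and 0 and 2, when 1 patriline was left out; the lowest values were those without P11. The number of abundant transcripts was 382 at a threshold of 10 CPM and 132 at 40 CPM, and 201 on TMM-scaled CPM, of which 180 were among the 231. Restricted transcripts numbered 115 at 5 times, 51 at 20 times and 65 with TMM scaling, all of the 231, and 54 among the 201 chosen on TMM-scaled CPM. With P21 included the XR_ share of library totals was higher in brain, by 1.18 points over ventriculus and 1.12 over Malpighian tubules. The adjusted exact permutation p was 0.0469 for each. It rests on the smallest p that 6 patrilines of the same sign can give and on the P21 pools described as less clean. The median brain CV was 13.5% without P11.

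Directions of named transcripts between their 2 highest tissues turned with library totals alone for XR_003306098.1 (Malpighian tubules minus ventriculus, 0.85), XR_001706384.2 (brain minus ventriculus, 0.18), XR_001704394.2 (Malpighian tubules minus ventriculus, 0.23), XR_001705692.2 (ventriculus minus brain, -0.44) and XR_003306454.1 (brain minus Malpighian tubules, 0.12), and for the fifth the range was -0.55 to 0.014 when 1 patriline was left out, the highest value being that without P11. Library totals alone shift every such difference by construction, and the cause of the change without P11 was not tested. All values rest on pools of 5 workers from a single colony, 1 pool per patriline and tissue, all exposed to clothianidin. Fragments shared between transcripts were not counted, which limits what is known of transcripts with few bases of their own.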

Other observations

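A noncoding transcript outside the 20 CPM rule had a pattern over patrilines in both abdominal organs. XR_003306097.1 (LOC107965483) was at 27.1, 31.6 and 39.3 CPM in the tubule pools of P1, P8 and P21, with 3.88, 5.81 and 9.91 CPM in those of P7, P11 and P24. In ventriculus the pools of P1, P8 and P21 were at 23.1, 22.8 and 65.5 CPM, with 3.42, 3.54 and 3.04 CPM in P7, P11 and P24. The split of the pools is not that of XR_409099.3, where P11 was high and P21 low. In edgeR's patriline test over all features, without P21, its adjusted p was 0.204, so it did not pass 0.05. Over the alternatives it ranged between 0.0187 with DESeq2's likelihood ratio test, which alone passed, and 0.452 without P7, and it was 0.054 without the brain pools.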
